A study of Mus musculus with 8 samples.

Results

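The genes described are 10 regulators of the actin cytoskeleton and of Rac signalling whose expression is largely restricted to blood-forming (haematopoietic) cells: Rac2, Vav1, Dock2, Arhgdib, Was, Hcls1, Coro1a, Lcp1, Myo1f and Fermt3. They were taken by gene name, 10 of the 56748 genes in the count file, and all 10 passed the filter on low counts that left 18495 genes tested. Of the 10, 8 were taken for their function, and 2, Myo1f and Lcp1, were selected on their measured values, which were lower in every NPY-tet library than in any wild-type library. For Myo1f and Lcp1 the comparison between genotypes is therefore a description, without a test. The other 8 were not picked by value, but they were listed with earlier results of these data known.

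RNA came from whole skin of male mice killed at 35 weeks of age, 1 library per mouse. Mice with both copies of the NPY tet allele (NPY tet/tet, strain B6;129S4-Npytm2Rpa/J) numbered 3, and are called NPY-tet. Their wild-type siblings (NPY+/+) numbered 5. The labels record no treatment and do not say which cells of the skin carry the raised Npy, the gene of the transmitter peptide neuropeptide Y. The study's title concerns an inflammatory and fibrotic response of the skin to raised Npy, and the question asked here is how the motility machinery of the leukocytes resident in that skin compared between the genotypes.

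A leukocyte moves by pushing out a branched actin network at its front and gripping with integrins. The small GTPase Rac switches the front on: guanine nucleotide exchange factors load it with GTP, and an inhibitor of dissociation holds it inactive in the cytosol. Active Rac and Cdc42 act through proteins of the WASP and WAVE families on the Arp2/3 complex, which builds new branches on existing filaments. Bundling proteins and myosins then shape the network, and kindlin and talin switch on the integrins. Most of these steps are run in blood cells by a haematopoietic member of a gene family whose other members act outside blood cells too. In whole skin the level of the haematopoietic member therefore reports on a minority of the cells.

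Each library held 31370433 to 47495565 counts, and each of the 10 genes had 162 to 5925 counts in each library. Npy itself stood at 0.237 ± 0.148 CPM (counts scaled to library size; SD, n = 5) in wild-type skin and at 308 ± 11.6 CPM (SD, n = 3) in NPY-tet skin. This is a log2 fold change of 10.37 (SE 0.28, adjusted p = 3.60e-09, edgeR quasi-likelihood test), and the 3 NPY-tet libraries carry the genotype of their labels. The libraries fell into sets that the labels do not give. Ribosomal RNA took 0.0398% to 0.0759% of counts in NPY-tet replicates 2 and 3 and wild-type replicate 4, and 6.54% to 8.13% in each of the other 5 libraries. Keratinocyte markers, which define the epidermis, summed to 9585 to 20364 CPM over the 8 libraries. Some libraries also stood apart in other cells. Summed fibroblast markers in NPY-tet replicate 1 were at 2359 CPM against 9991 to 23642 CPM in wild-type skin. The chemokine Cxcl13, which lymphoid tissue makes, was at 51.9 CPM in wild-type replicate 4 and 34.4 CPM in NPY-tet replicate 1, against 1.27 to 2.44 CPM in the other 6 libraries.

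All 10 genes had a lower fitted level in NPY-tet skin. The log2 fold changes, NPY-tet over wild-type, ran from -0.87 for Myo1f to -0.36 for Vav1 with a median of -0.57, which is 54.5% to 77.7% of the wild-type level. This range and median include Myo1f and Lcp1, which were chosen for lower values. For the 8 taken by function, all of them lower, the median was -0.48 (range -0.74 to -0.36), or 59.9% to 77.7% of the wild-type level. Over all tested genes 49.3% had a fitted level below wild-type, and the median log2 fold change was 0.004. None of the 8 genes taken by function passed an adjusted p of 0.05 in edgeR, where the adjusted p ran from 0.549 to 0.798, and 0 of the 8 passed in DESeq2, in limma-voom or in limma on log2(FPKM + 1). The call rate of that test was low throughout: 0.00541% of all tested genes passed it, which is 1 gene, Npy. At an unadjusted p under 0.05, 6 of the 8 were lower (all but Vav1 and Fermt3), against 3.55% of all tested genes. Every NPY-tet value lay below every wild-type value in 3 of the 8 genes taken by function (Rac2, Dock2 and Was), which held for 1.98% of all tested genes. In 0 of the 8 did every NPY-tet value lie above every wild-type value, against 1.81% of all tested genes, and in 5 the genotypes overlapped. Lcp1 and Myo1f were without overlap by choice. The other 8 were listed beside them with earlier results of these data known. Their shares against all tested genes are therefore a description and no independent support. In whole skin, fewer cells of a type and less RNA per cell cannot be told apart.

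**Figure D1:**
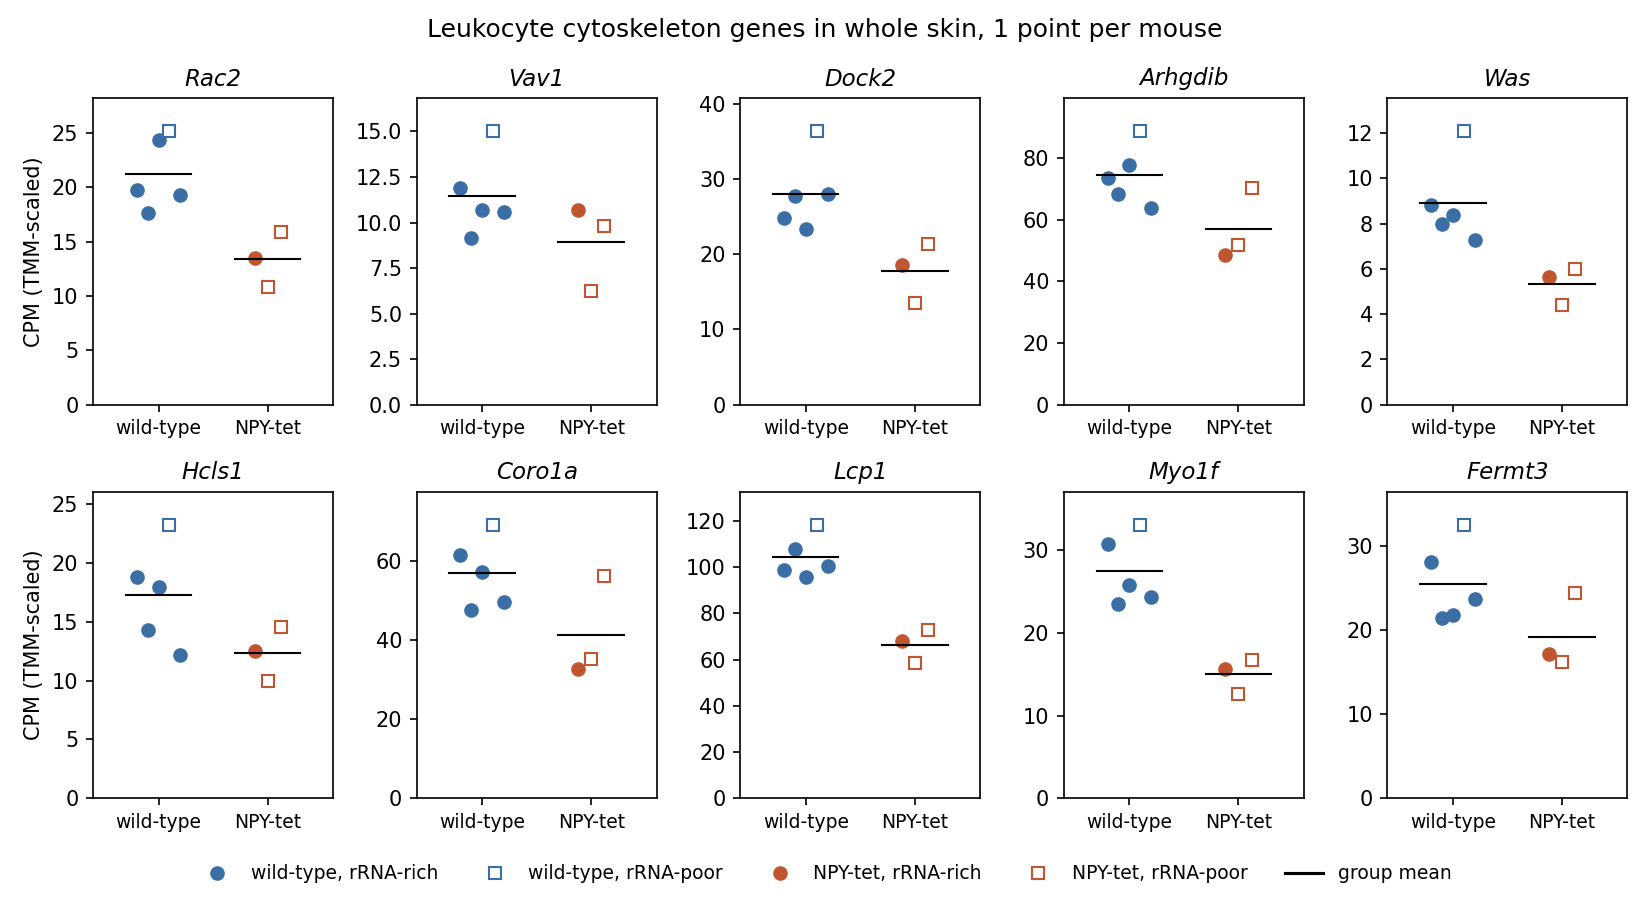
CPM of the 10 haematopoietic actin and Rac regulators in each library, by genotype, on linear axes from 0. Each point is 1 mouse (filled, rich in ribosomal RNA; open squares, poor in it) and lines are group means; NPY-tet points lie below all wild-type points for Rac2, Dock2, Was, Lcp1 and Myo1f and overlap them for the other 5 genes.

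Promoter sequence from RefSeq (build GRCm38.p6) was matched for 9 of the 10 genes, all but Rac2. It was searched because leukocyte-restricted genes are often driven by ETS-family factors such as PU.1 and by RUNX factors, which bind short core motifs near the start site. The motifs were AGGAAGT (ETS family), TGTGGT (RUNX) and TATAAA (the box near the start of some genes that the TATA-binding protein holds), on both strands of the 250 bases before each annotated start. None of the 3 words contains another. The 9 genes have 13 annotated starts. The ETS word was found before 4 of the 13 starts (30.8%), against 7.69% of all 32851 starts in the table, and the genes were Hcls1, Vav1, Was and Arhgdib. The RUNX word was found before 3 of 13 starts (23.1%, against 14.0% of all), those of Myo1f, Fermt3 and Was. The TATA word was found before 2 of 13 (15.4%, against 12.4% of all), those of Arhgdib and Hcls1. It lay 234 and 219 bases before the start in Arhgdib and 160 bases before it, on the opposite strand, in Hcls1. None of these places is close to the start. The ETS word was also found before 4 of 9 starts (44.4%) of the pan-leukocyte markers, before 4 of 17 (23.5%) of the widely expressed relatives and before 0 of 25 of the actin machinery of all cells. The 5 genes with an ETS or RUNX word near the start are shown as the 120 bases that end just before it, 5′ to 3′ on the gene's strand, with the words in capitals. An ETS word on the opposite strand reads ACTTCCT.
Hcls1: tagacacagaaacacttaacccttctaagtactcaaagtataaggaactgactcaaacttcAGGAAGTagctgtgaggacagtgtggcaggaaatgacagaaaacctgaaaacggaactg
Myo1f: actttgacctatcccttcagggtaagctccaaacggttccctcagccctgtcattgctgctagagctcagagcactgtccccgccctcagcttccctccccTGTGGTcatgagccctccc
Vav1: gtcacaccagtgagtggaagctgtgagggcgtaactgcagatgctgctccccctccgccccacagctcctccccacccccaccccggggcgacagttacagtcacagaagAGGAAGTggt
Fermt3: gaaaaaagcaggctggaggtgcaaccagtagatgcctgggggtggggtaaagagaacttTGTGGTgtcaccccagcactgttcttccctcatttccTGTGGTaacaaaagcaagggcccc
Was: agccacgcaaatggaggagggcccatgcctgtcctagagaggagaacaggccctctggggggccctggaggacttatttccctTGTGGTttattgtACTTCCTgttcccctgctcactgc
The stretches are chr16:36934863-36934982 (plus strand, Hcls1), chr17:33555587-33555706 (plus, Myo1f), chr17:57278980-57279099 (plus, Vav1), chr19:7019470-7019589 (minus, Fermt3) and chrX:8090492-8090611 (minus, Was), all in GRCm38.p6. Was carries both words close together, Fermt3 carries the RUNX word at 2 places, and in Vav1 the ETS word lies almost at the start. A word match is a description of the sequence. Of the factors that bind these words, Spi1 (PU.1) was measured at 33.1 ± 6.19 CPM in the wild-type mice and 22.6 ± 5.58 CPM in NPY-tet skin, with a log2 fold change of -0.55 (SE 0.19). The ETS factor gene Fli1 was at -0.05 (SE 0.19) and the RUNX genes Runx1 and Runx3 at 0.15 (SE 0.39) and -0.06 (SE 0.22). Of all 8 leukocyte transcription factor genes measured, 6 were fitted below wild-type (median -0.14, range -0.55 to 0.58), against 49.3% of all tested genes. None passed the adjusted threshold in edgeR. Spi1 and Irf8 were lower at an unadjusted p under 0.05, against 3.55% of all tested genes.

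The Rac switch is described first. Rac2 (ENSMUSG00000033220, chr15:78443367-78456983, minus strand, mm39) is the Rac GTPase of blood cells, needed for neutrophil movement and for the oxidative burst. It was at 19.7, 17.6, 24.3, 25.2 and 19.3 CPM over the 5 wild-type mice, replicate 1 first, and at 13.5, 10.8 and 15.9 CPM over the 3 NPY-tet mice. The same order of mice is used throughout. The highest NPY-tet library lay below the lowest wild-type library. The log2 fold change was -0.66 (SE 0.18, adjusted p = 0.549), the smallest adjusted p among the 8 genes taken by function.

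Dock2 (ENSMUSG00000020143, chr11:34176815-34674719, minus strand, mm39) is the exchange factor through which chemokine receptors activate Rac in lymphocytes. Its values were 24.7, 27.8, 23.3, 36.4 and 28.0 CPM in the wild-type mice and 18.5, 13.5 and 21.3 CPM in NPY-tet skin, again without overlap. The log2 fold change was -0.66 (SE 0.19, adjusted p = 0.594). Wild-type replicate 4 was well above the other wild-type mice. Vav1 (ENSMUSG00000034116, chr17:57586100-57635031, plus strand, mm39), the exchange factor that antigen receptors activate by phosphorylation, was at 11.9, 9.16, 10.7, 15.0 and 10.6 CPM in the wild-type mice and 10.7, 6.23 and 9.80 CPM in NPY-tet skin. NPY-tet replicates 1 and 3 lay among the wild-type mice. Vav1 had the smallest difference of the 10 (log2 fold change -0.36, SE 0.22, adjusted p = 0.798).

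Arhgdib (ENSMUSG00000030220, chr6:136900653-136918897, minus strand, mm39) encodes the haematopoietic GDP-dissociation inhibitor that holds Rac in the cytosol. It was at 73.4, 68.3, 77.7, 88.8 and 63.7 CPM in the wild-type mice and 48.7, 51.7 and 70.4 CPM in NPY-tet skin. NPY-tet replicate 3 lay inside the wild-type range and the other 2 NPY-tet mice below it, with a log2 fold change of -0.39 (SE 0.16, adjusted p = 0.795).

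Among the genes that act on branched actin, Was (ENSMUSG00000031165, chrX:7947692-7956737, minus strand, mm39) encodes WASP, the activator of the Arp2/3 complex that is missing in Wiskott-Aldrich syndrome. It was at 8.82, 8.00, 8.38, 12.1 and 7.29 CPM in the wild-type mice and 5.64, 4.39 and 6.00 CPM in NPY-tet skin. The genotypes did not overlap, and the log2 fold change of -0.74 (SE 0.21, adjusted p = 0.594) was the largest of the 8 genes taken by function. Hcls1 (ENSMUSG00000022831, chr16:36755345-36783574, plus strand, mm39), the haematopoietic counterpart of cortactin, stabilises the branches. It was at 18.8, 14.3, 17.9, 23.2 and 12.2 CPM in the wild-type mice and 12.5, 9.9999 and 14.5 CPM in NPY-tet skin. Wild-type replicates 2 and 5 lay within the NPY-tet range (log2 fold change -0.49, SE 0.21, adjusted p = 0.795).

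Coro1a (ENSMUSG00000030707, chr7:126298945-126306959, minus strand, mm39) encodes coronin 1A, which binds actin and Arp2/3 and whose loss depletes T cells. Its values were 61.6, 47.8, 57.4, 69.3 and 49.6 CPM in the wild-type mice and 32.7, 35.4 and 56.2 CPM in NPY-tet skin. NPY-tet replicate 3 stood inside the wild-type range and the other 2 below it, with a log2 fold change of -0.46 (SE 0.19, adjusted p = 0.795). The libraries do not keep strand, and Coro1a overlaps Bola2 on the opposite strand, which was given 642 to 1318 counts per library, so reads of the shared stretch cannot be told apart.

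The bundling protein and the myosin are the 2 genes chosen for their values. Lcp1 (ENSMUSG00000021998, chr14:75368541-75468282, plus strand, mm39) encodes L-plastin, which ties actin filaments into bundles. It was at 98.8, 108, 95.9, 118 and 101 CPM in the wild-type mice and 68.2, 58.4 and 72.9 CPM in NPY-tet skin. The log2 fold change was -0.65 (SE 0.13). Myo1f (ENSMUSG00000024300, chr17:33774681-33826738, plus strand, mm39) encodes a single-headed class I myosin of myeloid cells that controls integrin display and movement of neutrophils. It was at 30.7, 23.4, 25.8, 33.1 and 24.4 CPM in the wild-type mice and 15.6, 12.6 and 16.8 CPM in NPY-tet skin, a log2 fold change of -0.87 (SE 0.16). For both genes the absence of overlap is what chose them.

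Fermt3 (ENSMUSG00000024965, chr19:6976326-6996837, minus strand, mm39) encodes kindlin-3, which switches on the integrins of leukocytes and platelets. It was at 28.1, 21.5, 21.8, 32.6 and 23.7 CPM in the wild-type mice and 17.2, 16.3 and 24.4 CPM in NPY-tet skin. NPY-tet replicate 3 lay above 3 of the 5 wild-type mice, and the log2 fold change was -0.41 (SE 0.19, adjusted p = 0.795). Fermt3 overlaps Trpt1 on the opposite strand, which was given 257 to 471 counts per library.

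Levels can be set side by side between genes only per length, as FPKM (fragments scaled to gene length and library size). In wild-type skin Arhgdib was the most abundant of the 10 at 43.1 ± 5.62 FPKM (SD, n = 5). Coro1a followed at 20.3 ± 3.14 FPKM and Lcp1 at 10.9 ± 0.971 FPKM, and the ranges of these 3 over the wild-type mice did not overlap. Below them came Hcls1 and Rac2 at 6.76 FPKM each (SD 1.68 and 1.08), Myo1f at 5.47 ± 0.831, Fermt3 at 4.37 ± 0.813, Was at 3.70 ± 0.781, Vav1 at 3.07 ± 0.599 and Dock2 at 2.43 ± 0.448 FPKM. From Hcls1 down, each gene's range overlapped that of its neighbour in the order. In NPY-tet skin Arhgdib (32.9 ± 6.85 FPKM; SD, n = 3), Coro1a (14.7 ± 4.59) and Lcp1 (6.91 ± 0.780) again led, and Dock2 (1.54 ± 0.345) was again last.

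The 10 genes varied together from mouse to mouse. Wild-type replicate 4 was the highest of the 8 libraries for all 10 genes, as it was for 14.8% of all tested genes. NPY-tet replicate 2 was the lowest of the 8 libraries for 8 of the 10 (12.6% of all tested genes), and NPY-tet replicate 1 for Arhgdib and Coro1a. Within the NPY-tet group, replicate 3 was the highest for 9 of the 10, all but Vav1. Averaged over the 10 genes, the log2 level relative to the wild-type mean was 0.04, -0.17, -0.04, 0.34 and -0.16 over the wild-type mice and -0.57, -0.83 and -0.31 over the NPY-tet mice. Each NPY-tet mean lay below the lowest wild-type mean, while the NPY-tet mice differed among themselves by about as much as the wild-type mice did. The means include Lcp1 and Myo1f, which were chosen for this separation, and were not taken over the other 8 genes alone.

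**Figure D2:**
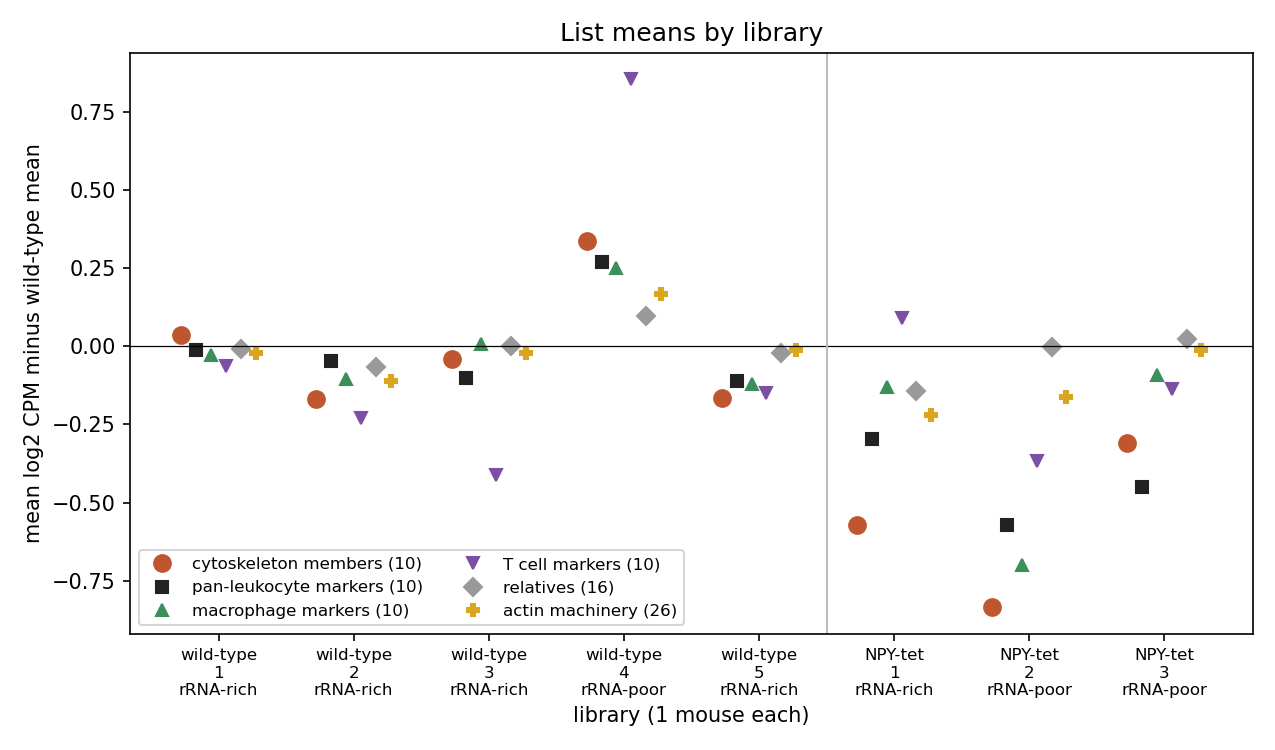
Mean log2 CPM of 6 gene lists in each library (horizontal axis, 1 mouse each, with its ribosomal RNA set) minus the wild-type mean of the list, 1 symbol per list. The haematopoietic actin and Rac regulators are at -0.83 to -0.31 in the NPY-tet mice and at -0.17 to 0.34 in the wild-type mice. They include Lcp1 and Myo1f, chosen for lower NPY-tet values.

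The ribosomal RNA sets hold the genotypes unequally, so the difference was also taken within each. Among the libraries rich in ribosomal RNA (4 wild-type, 1 NPY-tet) 9 of the 10 genes were lower in the NPY-tet mouse, with a median log2 difference of -0.53 and a range from -0.73 for Myo1f to 0.03 for Vav1. Among the libraries poor in it (1 wild-type, 2 NPY-tet) all 10 were lower, with a median of -0.94 and a range from -1.23 for Was to -0.56 for Arhgdib. The single wild-type mouse of the second set is replicate 4, the highest of all. Of the 8 genes taken by function 7 were lower within both sets, against 27.8% of all tested genes. This share too is a description, since the 8 were listed with earlier results of these data known. With 1 mouse on one side of each set these values carry no replicate check. Leaving out wild-type replicate 4 altogether gave a median of -0.46, leaving out NPY-tet replicate 2 gave -0.43 and leaving out NPY-tet replicate 3 gave -0.73. The same 5 genes were without overlap in each of these but the last, where Arhgdib, Coro1a and Fermt3 joined them to make 8. At fixed scaling, leaving out a library cannot bring overlap into a gene that had none. The count could therefore only stay at 5 or rise, and no share over all tested genes stands beside it.

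The widely expressed relatives of the 10 genes were measured in the same fit to see whether whole families were lower. They were Rac1 and Rac3 for Rac2, Vav2 and Vav3 for Vav1, Dock1 and Dock5 for Dock2, Arhgdia for Arhgdib, Wasl for Was, and Cttn for Hcls1. For the rest they were Coro1b and Coro1c for Coro1a, Pls1 and Pls3 for Lcp1, Myo1e for Myo1f, and Fermt1 and Fermt2 for Fermt3. Not all are broadly expressed: Fermt1 is a gene of epithelium, and Pls1 averaged 0.675 FPKM over all libraries. Of these 16 genes, 9 had a fitted level below wild-type and 7 above, the median log2 fold change was -0.05 (range -0.33 to 0.29), and none was without overlap between the genotypes. None passed the adjusted threshold (edgeR adjusted p 0.795 to 0.999). At an unadjusted p under 0.05 there was 1, Pls3, a plastin of non-blood cells, at 95.3 ± 7.61 CPM in the wild-type mice and 117 ± 17.02 CPM in NPY-tet skin (log2 fold change 0.29). Over all tested genes 2.43% were higher at that p.

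The pairs differ in detail. Rac1, the Rac of all cells, had a log2 fold change of -0.18 against -0.66 for Rac2, and Arhgdia one of -0.33 against -0.39 for Arhgdib. The N-WASP gene Wasl was at 0.16 against -0.74 for Was, and Myo1e at 0.15 against -0.87 for Myo1f. Kindlin-1 (Fermt1, of epithelium) was at 0.27 and kindlin-2 (Fermt2) at -0.08, against -0.41 for Fermt3. The haematopoietic gene had a lower fold change than each relative in all 10 families (untested), narrowly so for Arhgdib.

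Expressed as a share of its family's FPKM, Was made up 33.3% ± 5.20 (SD, n = 5) of Was plus Wasl in wild-type and 21.3% ± 2.88 (SD, n = 3) in NPY-tet skin. Lcp1 made up 32.1% ± 1.22 of the 3 plastins in wild-type and 20.2% ± 4.23 in NPY-tet skin, and Myo1f 28.5% ± 2.84 and 16.3% ± 1.86 of Myo1f plus Myo1e. Dock2 made up 23.9% ± 2.83 and 16.8% ± 1.86 of its family and Rac2 8.49% ± 0.985 and 6.17% ± 0.743 of the Rac genes. For Arhgdib the shares were 20.5% ± 1.04 and 19.8% ± 1.38, a difference within the spread. On log2(FPKM + 1), member minus summed relatives, the median difference between genotypes was -0.40 (range -0.85 to -0.05). In 6 of the 10 families (Rac2, Dock2, Was, Hcls1, Lcp1 and Myo1f) the NPY-tet values lay below all wild-type values. Lcp1 and Myo1f had the largest differences, and their choice for lower NPY-tet values favours this outcome. Among the genes taken by function the differences ran from -0.68 for Was to -0.05 for Arhgdib. The count has no share over all tested genes to stand beside it.

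**Figure D3:**
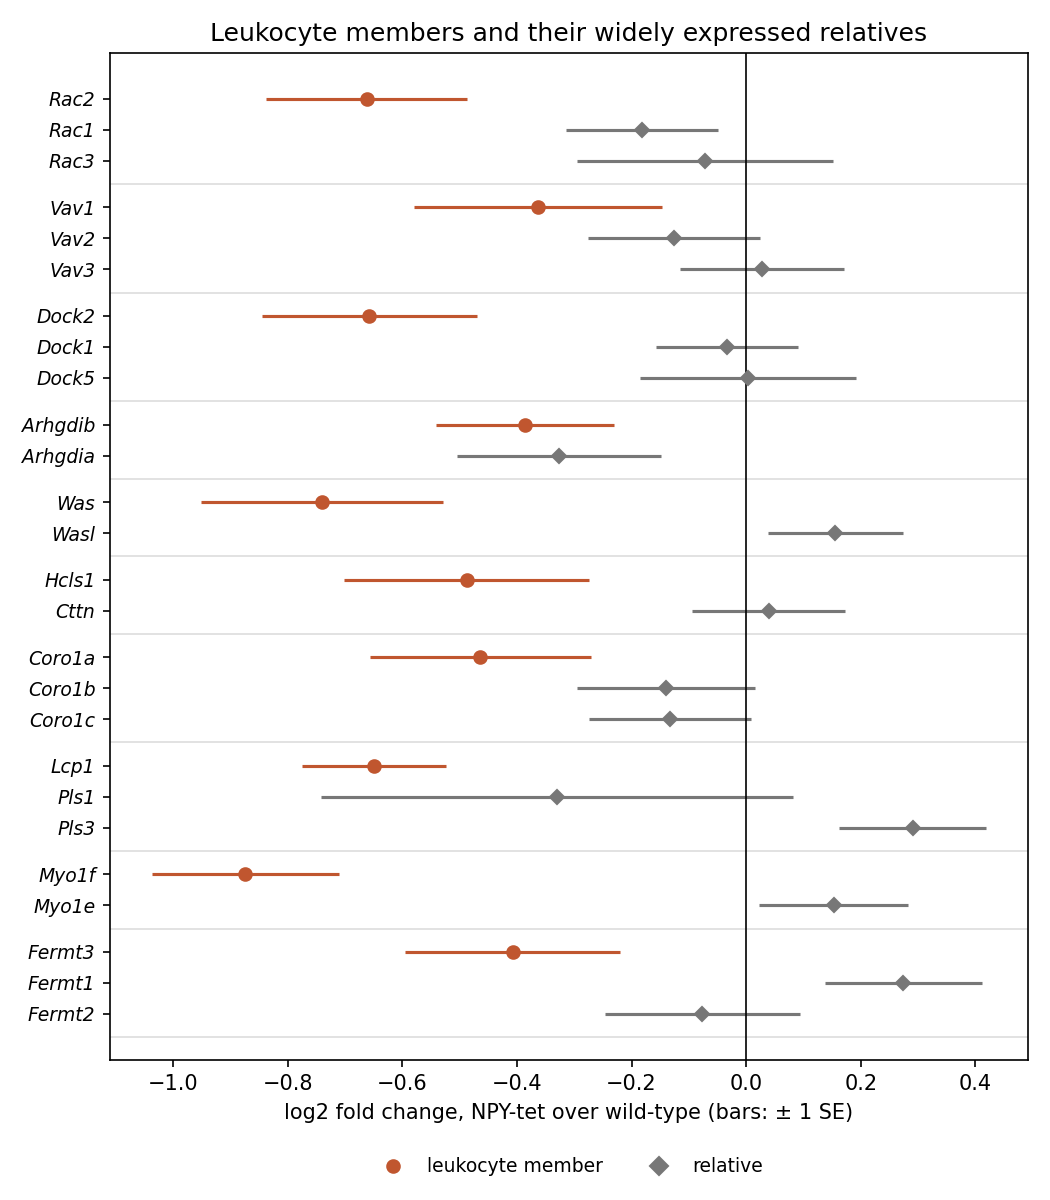
Log2 fold change, NPY-tet over wild-type, of each haematopoietic gene and of its widely expressed relatives, with bars of 1 SE. The haematopoietic genes lie between -0.87 and -0.36 and the relatives between -0.33 and 0.29.

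Other genes of the pathway were taken from lists. Of 16 leukocyte adhesion genes, 12 had a fitted level below wild-type and 4 above (median log2 fold change -0.31, range -0.84 to 0.19). None passed the adjusted threshold (smallest adjusted p = 0.566), and at an unadjusted p under 0.05 there were 4, all lower. Over all tested genes 49.3% were fitted below wild-type and 3.55% were lower at that p. Itgb2, the beta chain of the leukocyte integrins that kindlin-3 acts on, was at 59.6, 40.9, 46.1, 49.5 and 36.0 CPM in the wild-type mice and 31.2, 18.8 and 31.9 CPM in NPY-tet skin (log2 fold change -0.76), without overlap. Itgb1, the beta chain found on most cells, was level at 238 ± 15.2 and 244 ± 10.8 CPM. The other gene without overlap was Apbb1ip (RIAM, which brings talin to integrins), named after its values were seen. Over all tested genes 1.98% had every NPY-tet value below every wild-type value. For the actin machinery that all cells use, 22 of 26 genes had a fitted level below wild-type, against 49.3% of all tested genes. The median was -0.13 (range -0.44 to 0.19), and 0 were without overlap. At an unadjusted p under 0.05, 2 were lower, against 3.55% of all tested genes. None passed the adjusted threshold (smallest adjusted p = 0.783). Beta-actin (Actb) was at 1274 ± 168 and 942 ± 124 CPM, a log2 fold change of -0.44, and gamma-actin (Actg1) at 937 ± 124 and 756 ± 107 CPM (-0.31).

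General leukocyte markers stood lower beside the 10 genes. All 10 pan-leukocyte markers had a fitted level below wild-type (median log2 fold change -0.50, range -0.66 to -0.18), against 49.3% of all tested genes. Of the 10, 0 passed the adjusted threshold in edgeR. At an unadjusted p under 0.05 there were 5, all lower, against 3.55% of all tested genes. Their summed level was 292 to 385 CPM in the wild-type mice and 199 to 249 CPM in NPY-tet skin, so the sums did not overlap. Gene by gene, every NPY-tet value lay below every wild-type value in 3 of the 10, against 1.98% of all tested genes. The other markers overlapped. Laptm5, a lysosomal protein of blood cells and the largest part of the sum, was at 113 ± 15.999 and 71.7 ± 18.1 CPM, with overlap. The signalling adaptors Fcer1g and Tyrobp were at 35.9 ± 5.25 and 22.8 ± 1.92 CPM and at 34.3 ± 7.94 and 22.2 ± 3.04 CPM, and Ptprc (CD45) was at 24.9 ± 3.15 and 20.7 ± 5.28 CPM.

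Relative to the mean of these pan-leukocyte markers in the same library, 7 of the 10 genes were still lower in NPY-tet skin, but the median log2 difference was -0.13 (range -0.43 to 0.06) and 9 of the 10 overlapped between the genotypes. The gene without overlap was Myo1f, at -0.43, and it was chosen for lower NPY-tet values. Was stood at -0.28, Rac2 and Dock2 at -0.22, Lcp1 at -0.21, Coro1a at -0.05 and Hcls1 at -0.03, while Fermt3, Arhgdib and Vav1 stood at 0.03, 0.04 and 0.06. Against Ptprc alone the median was -0.29. These medians compare with -0.57 for the same 10 genes before the leukocyte markers were subtracted. All of these medians include Myo1f and Lcp1, the genes chosen for their values.

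**Figure D4:**
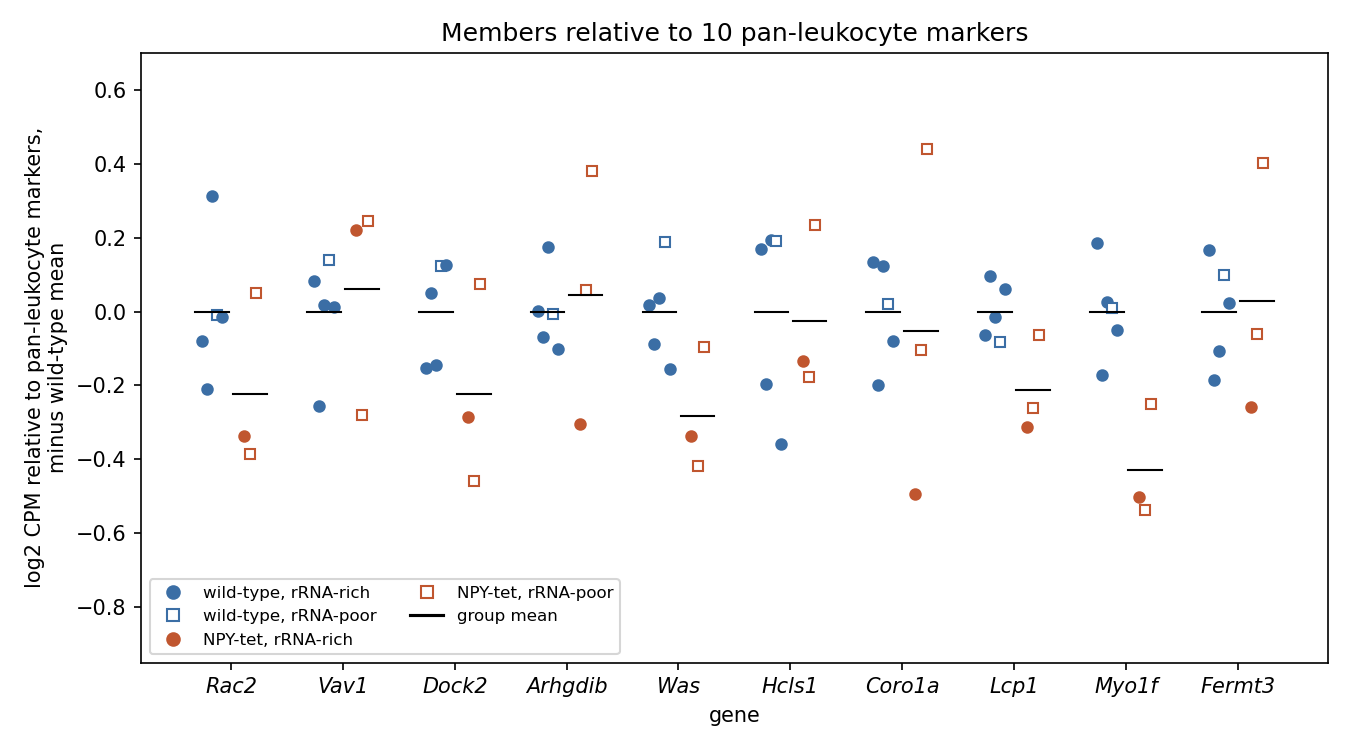
Log2 CPM of each haematopoietic gene minus the mean log2 CPM of 10 pan-leukocyte markers, set to 0 at the wild-type mean, with 1 point per mouse and lines for group means. The genotypes overlap for 9 of the 10 genes, and Myo1f, at a mean difference of -0.43, is the exception. Myo1f was chosen for lower NPY-tet values.

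Markers of single leukocyte types were less uniform. Of 10 macrophage markers, 8 had a fitted level below wild-type (median log2 fold change -0.38), with summed levels of 747 to 1102 CPM in the wild-type mice and 522 to 859 CPM in NPY-tet skin. Of 10 dendritic and Langerhans cell markers 7 were below (median -0.22), with sums of 2161 to 3587 and 1413 to 2226 CPM. Of 10 T cell markers 7 were below (median -0.07), with sums of 39.5 to 90.5 CPM, the highest in wild-type replicate 4, and of 42.4 to 55.6 CPM. Of 6 mast cell markers 4 were below (median -0.09; 149.98 to 185 and 111 to 178 CPM). None of the genes of these lists passed the adjusted threshold in edgeR. At an unadjusted p under 0.05 there were 4 macrophage, 3 dendritic, 2 mast and 1 T cell marker lower, and 1 macrophage marker higher. Over all tested genes the shares at that p were 3.55% lower and 2.43% higher. Neutrophil markers were scarce, with 3 of the 4 tested fitted above wild-type (2 at an unadjusted p under 0.05). Their sum was 5.33 to 6.91 CPM in wild-type and 20.7, 7.21 and 4.87 CPM over the NPY-tet mice. NPY-tet replicate 1, the highest, also stood apart in fibroblast markers and Cxcl13. Ly6g was at 0 in every wild-type library. Platelet markers, of interest for Fermt3, summed to 36.4 to 61.5 and 34.4 to 46.7 CPM, with Gp9 at no more than 0.025 CPM in any library. All 4 B cell markers tested had a fitted level below wild-type, and the list summed to 10.5 to 55.1 and 11.8 to 32.2 CPM, with Ms4a1 at no more than 0.067 CPM. Lymphoid tissue markers, of which 2 of 5 were tested and both were fitted above wild-type, summed to 2.15 to 52.9 and 2.57 to 35.3 CPM.

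Markers of other tissues of the skin were also measured. All 5 skeletal muscle markers had a fitted level below wild-type (median log2 fold change -0.55, range -0.68 to -0.21), near the median of the 10 genes, with sums of 24935 to 61340 CPM in wild-type and 23914 to 37895 CPM in NPY-tet skin. All 5 adipocyte markers were below too (median -0.38, range -0.83 to -0.08), with sums of 2666 to 4365 and 1659 to 4032 CPM. The 5 keratinocyte markers were all below with a median of -0.20, and 3 of the 5 fibroblast markers with a median of -0.003. Of 5 red cell genes 4 were above (median 0.13), with sums of 245 to 536 and 225 to 525 CPM. The genotypes overlapped in each of these sums, and none of these genes passed the adjusted threshold in edgeR, with 1 adipocyte marker (Plin1) lower at an unadjusted p under 0.05. Wild-type replicate 4, the highest library for the 10 genes, was the lowest wild-type library for muscle and the highest for keratinocyte and adipocyte markers. The part of these cell types in the values of the 10 genes was not tested.

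Other genes with the most similar pattern over the 8 libraries were found by the root-mean-square difference between standardised log2 CPM profiles, the gene against the mean of the 10, among 13698 genes of at least 1 CPM. The nearest 8 were Ptpro (0.113), Slfn2 (0.122), Ebi3 (0.136), Ifnar2 (0.183), Spi1 (0.202), Psmb10 (0.214), Siglec1 (0.218) and Themis2 (0.231). These encode, among others, a receptor tyrosine phosphatase (Ptpro), a cytokine subunit (Ebi3), a chain of the type I interferon receptor (Ifnar2), a subunit of the immunoproteasome (Psmb10) and the macrophage lectin CD169 (Siglec1). Spi1 is also one of the leukocyte transcription factors listed. Slfn2 was at 21.9 ± 4.86 CPM in the wild-type mice and 12.4 ± 3.03 CPM in NPY-tet skin, Psmb10 at 40.6 ± 6.11 and 24.6 ± 6.12 CPM and Siglec1 at 26.5 ± 6.57 and 14.0 ± 4.47 CPM. The same measure for the 10 genes themselves ran from 0.171 for Was, the closest to the common pattern, to 0.484 for Vav1. The profile holds the genotype difference, so the likeness of these genes includes it.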

How the data were processed

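RNA of whole skin from 8 mice (5 wild-type, 3 NPY-tet) was poly-T selected and sequenced as non-directional libraries, per the labels' protocols. The authors deposited raw counts for each Ensembl gene, in whole numbers, and the deposited FPKM values are scaled to gene length and library size by the authors. Per the submitters' processing notes the tools were DESeq2 1.20.0, featureCounts 1.5.0-p3, HISAT2 2.0.5 and CASAVA, without roles, and the build mm39. Columns were joined to mice by the mouse numbers in the titles. Library names in the descriptions of samples 3 to 8 carry a mouse number higher by 1, with the same genotype, so a replicate's mouse is uncertain but its genotype is not. Per-sample columns left unmapped numbered 0.

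Counts were tested with edgeR 4.0.16 in R 4.3.3 (filterByExpr, TMM, robust quasi-likelihood fit, two-sided F-test, Benjamini-Hochberg over 18495 genes, threshold 0.05), and the procedure was tested on simulated data. The common biological coefficient of variation was 0.318. The SE of a log2 fold change is its size divided by the square root of F. CPM are TMM-scaled, and log2 CPM used a prior count of 2. Each mouse is a replicate. The members and the 20 gene lists were chosen with earlier results of these data known, and 1 of the lists is not reported here. Genes named are the 10 members, their relatives, up to 5 genes per list with the highest mean FPKM, of which the text gives examples, and the 8 most similar profiles; Cxcl13, Ly6g, Gp9, Ms4a1, Ptprc and others marked in the text lie outside that rule and were chosen after their values were seen. Alternatives were other size factors and filters, DESeq2 1.42.0, limma 3.58.1 (voom, and log2 FPKM with pseudocounts of 1 and 0.1), the replicate number as a block, the ribosomal RNA set (boundary 1% of counts) and each library left out. Promoter tables are in GRCm38.p6 and gene coordinates in mm39, and neither was converted.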

Additional observations from a re-analysis of the deposited data

How the results depend on the processing

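The 10 genes, Lcp1 and Myo1f with their choice by value included, had a median log2 fold change below 0 under every alternative run. All 10 were lower in every fit except among the libraries rich in ribosomal RNA alone. There 9 were lower and Vav1 reversed to 0.0404. The median was -0.68 with a term for the ribosomal RNA set, -0.92 in the ribosomal RNA-poor libraries alone (1 wild-type mouse, assumed to vary like the others) and -0.73 to -0.43 when each library was left out. Members past an adjusted p of 0.05 numbered 0 in edgeR, 1 without the filter (Myo1f) and 2 in DESeq2 (Lcp1 and Myo1f). Both genes were chosen for their values, so these calls are no test of them. In the ribosomal RNA-poor libraries alone the log2 fold change was -1.07 for Dock2 and -1.18 for Myo1f. Over all genes the 1 call became 21 without the filter, 64 in DESeq2, 3 in limma-voom, 2 in limma on FPKM with either pseudocount, 11 with the ribosomal RNA covariate, and 332 and 227 in the ribosomal RNA-rich and -poor libraries alone. It ranged from 1 to 8 when each library was left out, with 8 without NPY-tet replicate 3. Members without overlap ranged from 5 to 8 in the same way, a count that at fixed scaling could only stay at 5 or rise. This alternative was chosen after seeing the data. The median relative to pan-leukocyte markers was -0.29 against Ptprc alone and ranged from -0.29 (without NPY-tet replicate 3) to -0.0661 (without NPY-tet replicate 2). Replicate numbers did not pair the mice throughout (correlations of same-numbered deviations -0.09, -0.21 and 0.40 over 15020 genes). The closest wild-type mouse was the same-numbered one for NPY-tet replicate 3, and replicate 5 for NPY-tet replicates 1 and 2. With the replicate number as a block 2 genes passed and 0 members, and the members' median was -0.50. At 162 or more counts per gene and library, the common biological coefficient of variation (0.318, over all tested genes) exceeds the counting error. The spread of a single member can be much smaller, as for Lcp1 in wild-type skin (104 ± 9.03 CPM, SD).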
